A study of Homo sapiens with 8 samples.

Results

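The epidermal differentiation complex is a stretch of chromosome 1 in which many genes of the skin barrier lie side by side. It was followed here in MCF10A cells, an immortalized human mammary epithelial line of wild-type genotype, by ATAC-seq, which cuts open chromatin with a transposase and counts where the cuts fall. Members were the protein-coding GENCODE genes between 151.9 and 153.8 Mb of chromosome 1 (GRCh38) that carry an S100A symbol ending in a number, an SPRR or an LCE symbol, or are IVL, FLG, FLG2, LORICRIN, HRNR, RPTN, TCHH or CRNN. This rule gave 53 genes of 20046 protein-coding genes in the annotation, namely 15 S100A, 11 SPRR and 19 LCE genes and the 8 named ones, and 16 further protein-coding genes lie in the interval. Peaks of all conditions were merged, and 219 of 126658 merged accessible regions fell in the interval. Cells were given 5 ng/ml recombinant human TGFβ1 for 6, 24 or 72 h, or solvent (BSA in PBS), in medium with horse serum, EGF, hydrocortisone, cholera toxin and insulin. Solvent cells carry time 0 in the sample labels. By the study's own legend they had solvent for 72 h, and every plate was harvested 3 days after seeding. The groups thus differ in length of TGFβ1 exposure and share the time of harvest. There were 2 libraries in each of the 4 conditions, but the authors called peaks on both replicates together, which left 1 peak list per condition, no spread between replicates and no test for any difference given here. All 3 TGFβ1 lists were set against the same solvent list.

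S100A proteins are small calcium-binding proteins of epithelial and immune cells. Involucrin (IVL), loricrin, the small proline-rich proteins (SPRR) and the late cornified envelope proteins (LCE) are cross-linked by transglutaminases into the tough shell of the outermost keratinocytes, and filaggrin (FLG), hornerin (HRNR), repetin (RPTN) and trichohyalin (TCHH) are large repeat proteins that bundle filaments or join that shell. The genes are known for being opened together as keratinocytes differentiate, a process in which AP-1, p63 and KLF4 take part.

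Each peak carries an area under the curve (AUC), the sum of the peak caller's significance signal along the peak, which grows with peak width, strength and sequencing depth. The depth of the lists is unknown, and they held 86209, 107656, 118433 and 116720 peaks for solvent, 6 h, 24 h and 72 h. To set the lists on one scale, each AUC was divided by the median ratio to solvent over regions within 3 kb of a transcription start site (TSS), which was 0.44, 0.38 and 0.25 in log2 at 6, 24 and 72 h over 32923, 32594 and 32098 regions. On this scale the median of all shared regions of the genome still stood at 0.06, 0.12 and 0.15 in log2 at the 3 times, so values near these sizes can change sign with the choice of scale. Where 4 values follow each other, they are in the order solvent, 6 h, 24 h, 72 h.

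The interval already held accessible regions in solvent cells, and its accessibility moved little in sum. In solvent, though, only 28 of the 53 member genes had a peak within 3 kb of a TSS. The 4 lists had peaks in 172, 206, 211 and 206 regions of the interval. Their scaled AUC summed to 312093, 329972, 342178 and 345685, and the TGFβ1 sums were 1.06, 1.10 and 1.11 times the solvent sum. Over all regions of the genome the same ratios were 1.09, 1.16 and 1.20. At 72 h regions within 3 kb of a TSS stood at 1.06 in the interval and 1.04 in the genome. Regions farther away stood at 1.21 and 1.43. The covered length was 111.652, 141.618, 140.678 and 135.184 kb, while the mean scaled AUC per region was 1814 in solvent and 1602, 1622 and 1678 under TGFβ1, so the higher sums came with more peaks and a longer covered length, and the mean per region was lower. With the lists scaled by all shared regions the ratios were 1.01, 1.01 and 1.00, and without scaling 1.44, 1.43 and 1.31.

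Most regions of the complex were present throughout. In 170 of 219 regions (77.6%) a peak stood in all 4 lists, against 62.6% of all regions of the genome, and 24 (11%) were found in all 3 TGFβ1 lists but not in solvent, against 14.3%. None of the 172 solvent regions was missing from all 3 TGFβ1 lists. A count of 0 allows a share of up to 1.74%, taken as 3 over 172, or 2.18% by the Wilson interval. Regions with a peak under TGFβ1 but not in solvent, called gained, numbered 34 of 206 at 6 h (16.5%, 95% Wilson interval 12.1 to 22.2, against 23.0% of the genome), 40 of 211 at 24 h (19.0%, 14.2 to 24.8, against 30.2%) and 36 of 206 at 72 h (17.5%, 12.9 to 23.2, against 30.1%). The share of gained regions lay below that of the genome at each time, with the genome's share outside the Wilson interval. The mix of regions differed, however, as 46.1% here and 34.5% in the genome lay within 3 kb of a TSS at 72 h. Of such regions 14 of 95 were gained at 72 h, beside 7153 of 39251 in the genome. Farther away it was 22 of 111, beside 27079 of 74639. Lost regions numbered 0 of 172 at 6 h (up to 1.74%, genome 0.714%), 1 at 24 h (0.581%, genome 1.86%) and 2 at 72 h (1.16%, genome 3.44%). These intervals cover counting error only. The solvent list was the shortest, and with all lists cut to its length gained regions numbered 13, 17 and 17 and lost ones 10, 11 and 15. The genome's shares are not given for lists of equal length. These counts can therefore not be set against the genome shares above.

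Among regions with a peak in both lists, a scaled log2 ratio of at least 0.5 was taken as raised and of -0.5 or less as lowered. Raised regions numbered 20 of 172 at 6 h (11.6%), 43 of 171 at 24 h (25.1%) and 40 of 170 at 72 h (23.5%), beside 14.8%, 24.1% and 26.7% of shared regions of the genome. Lowered regions numbered 5 of 172 (2.91%), 5 of 171 (2.92%) and 14 of 170 (8.24%, 4.97 to 13.3), beside 2.11%, 4.32% and 5.03%. The Wilson interval of each of these shares contained the genome's value. Without scaling, the raised shares of the interval were 45.3%, 49.1% and 39.4%, for which no unscaled genome share is given. The median ratio in the interval was 0.00, 0.11 and 0.10 in log2 at 6, 24 and 72 h.

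At 72 h the lowered regions of the complex lay mostly near start sites. Of 81 shared regions within 3 kb of any TSS, 11 were lowered (13.6%, 7.76 to 22.7, against 4.95% of such regions in the genome) and 15 raised (18.5% against 16%). Of 89 regions farther away, 3 were lowered (3.37% against 5.08%) and 25 raised (28.1% against 34.0%). The 11 lowered regions were nearest to RPTN, HRNR, CRCT1, KPRP, LCE1C, LCE1B, PGLYRP4, S100A9 and S100A8, with 2 more nearest to SLC27A3, a fatty acid transporter gene that is no member. The RPTN one lay 30720 bp from the TSS of RPTN and 371 bp from a TSS of a gene that is not protein-coding. Several lay close to the fold, with HRNR at -0.50, LCE1B at -0.51, and LCE1C and the S100A9 TSS region at -0.55. With regions near protein-coding TSSs as the scale, HRNR stood at -0.47 and LCE1B at -0.48, short of the fold. As AUC per base of peak LCE1B was 0.10. Weak regions were raised more often than strong ones, here as in the genome. Of 90 regions with a solvent AUC under 1000, 31 were raised (34.4% against 39.5%), and of 80 stronger ones, 9 (11.3% against 8.50%). Of the 170 regions in all lists, 31 were higher at every step from solvent to 72 h (18.2% against 22.8%) and 12 lower at every step (7.06% against 6.73%).

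**Figure D1:**
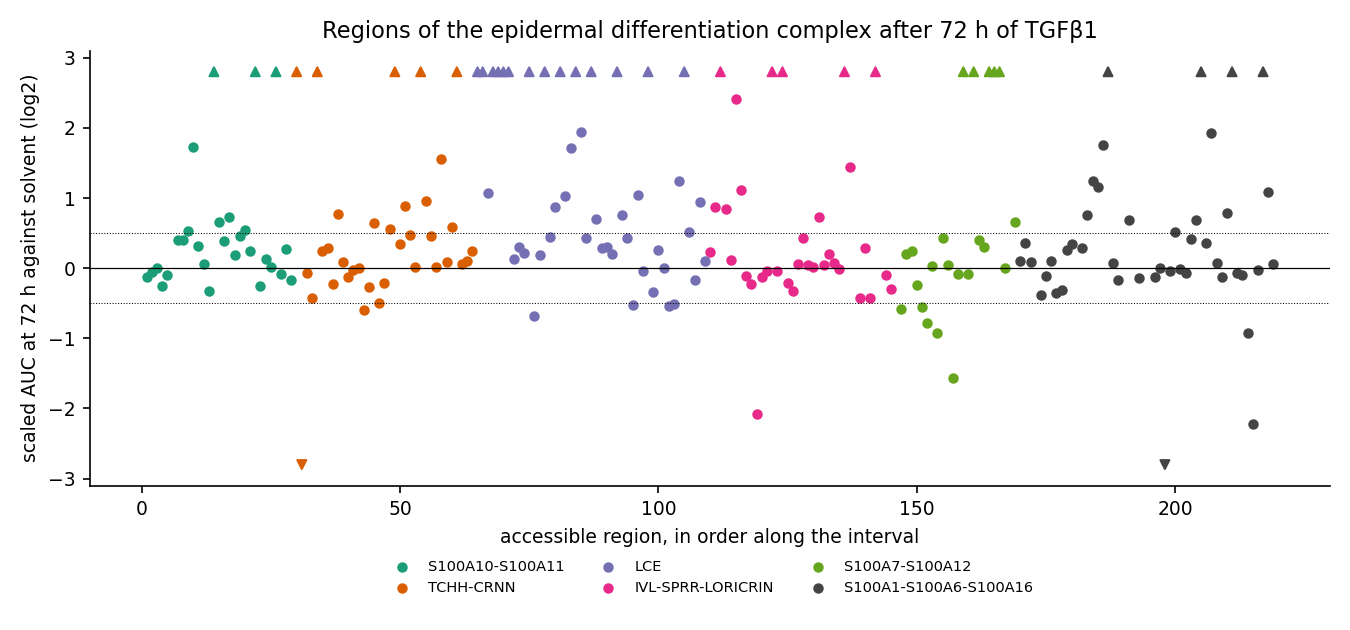
Scaled log2 ratio of AUC at 72 h against solvent for each region of the complex, in its order along the chromosome and coloured by gene block. Dots are regions with a peak in both lists, and dotted lines mark 0.5 and -0.5. Triangles at the top and bottom edges are the 36 gained and 2 lost regions, which have no ratio. In the LCE block 14 of 45 regions were gained, near the genome's share of 30.1%.

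Blocks of the complex, cut midway between gene families, differed in how far they moved. The LCE block had the highest ratio at each time. Its scaled AUC summed to 32133, 38664, 45251 and 45881, or 1.20, 1.41 and 1.43 times solvent. It counted 31, 41, 42 and 45 regions over 13.027, 18.089, 19.749 and 19.48 kb, with a mean AUC per region of 1037, 943, 1077 and 1020. Within the 31 regions open in solvent the ratio was 1.11, 1.24 and 1.22, and regions absent from solvent added 3135, 5516 and 6752 AUC. At 72 h 14 of the 36 gained regions of the interval lay here. They were 14 of the block's 45 regions in that list, near the genome's share of 30.1%. Of 31 shared regions 11 were raised and 4 lowered (35.5% and 12.9%, against 26.7% and 5.03% in the genome). The summed AUC ratio of the block at 72 h ran from 1.29 (scaling by all shared regions) to 1.69 (no scaling) over the scalings tried.

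The other blocks stayed nearer to solvent. For the block of IVL, the SPRR genes and LORICRIN the ratios were 1.01, 1.12 and 1.14 at 6, 24 and 72 h, over 13.677, 16.365, 17.371 and 16.789 kb in the 4 lists and with mean AUC of 1328, 1260, 1203 and 1293. The block of S100A10 and S100A11 gave 1.09, 1.10 and 1.13, and covered 20.161 kb in solvent and 24.073 kb at 72 h with mean AUC of 2603 and 2629. The block of large repeat proteins from TCHH to CRNN gave 1.00, 1.05 and 1.07, with 12.868 and 14.752 kb covered and mean AUC of 995 and 943 in solvent and at 72 h. The block of S100A1 to S100A6, S100A13, S100A14 and S100A16, which holds the widest and strongest peaks, gave 1.04, 1.03 and 1.03, with 43.295 and 50.775 kb and mean AUC of 3140 and 3011. When all shared regions set the scale, the TCHH to CRNN block and this block stood below 1 at 72 h, at 0.97 and 0.93. The block from S100A7 to S100A12 ended at 0.99 after 1.00 and 1.04, and within its 17 solvent regions the ratio was 0.94, 0.93 and 0.90. It covered 8.624 kb in solvent and 9.315 kb at 72 h with mean AUC of 1232 and 941, and 5 of its 17 shared regions were lowered and 1 raised at 72 h, beside 5.03% and 26.7% of shared regions of the genome. Counted as AUC per base of peak, this last block stood at 1.25 instead of 0.99.

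Regions near member genes did not stand apart from their neighbours in the interval. Of the 219 regions, 161 had a member as their nearest protein-coding TSS and 58 another gene. At 72 h the median ratio was 0.10 in log2 for the former and 0.09 for the latter, with 28 of 124 and 12 of 46 shared regions raised and 9 of 124 and 5 of 46 lowered.

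Fewer member genes had an open promoter than protein-coding genes at large. A peak within 3 kb of a TSS was found for 28, 30, 31 and 32 of the 53 members in the 4 lists (52.8%, 56.6%, 58.5% and 60.4%), against 75.2%, 77.4%, 78.1% and 77.6% of all 20046 genes. Gene families differed in this. Of the 15 S100A genes 14 had such a region in some list, all but S100A7, as had 6 of 11 SPRR genes and 8 of 19 LCE genes, and both IVL and LORICRIN. The 21 members with none in any list were TCHH, RPTN, FLG2, CRNN, LCE5A, LCE3B, LCE3C, LCE2A, LCE2B, LCE2D, LCE4A, LCE1A, LCE1D, LCE6A, LCE7A, SPRR2A, SPRR2B, SPRR2E, SPRR2F, SPRR2G and S100A7. Several of these are near copies of one another, and the authors removed reads of low mapping quality, so the absence of a peak there is uncertain. Summed AUC within 3 kb of a TSS was raised in 3 of the 28 members open in solvent at 6 h (genome 4.63%), in 5 at 24 h (7.45%) and in 4 at 72 h (7.10%). The summed AUC was lowered in 0 at 6 and 24 h (genome 0.378% and 0.924%), where a count of 0 allows up to 10.7% (3 over 28) or 12.1% (Wilson). At 72 h it was lowered in 3 (10.7%, 3.71 to 27.2, genome 1.58%). These counts depended on the scale, and shares over all genes are not given for the other scales. Without scaling 11, 9 and 8 members were raised and 0 lowered at any time, with all shared regions as the scale 2, 3 and 4 were raised and 0, 2 and 4 lowered, and per base of peak 1, 3 and 2 were raised and 0, 1 and 0 lowered. At 72 h 1 was lowered with regions near protein-coding TSSs as the scale or with peaks of at least 400 AUC. Over these members the median was -0.02, 0.01 and 0.05 in log2, beside -0.02, -0.03 and -0.04 over all genes.

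**Figure D2:**
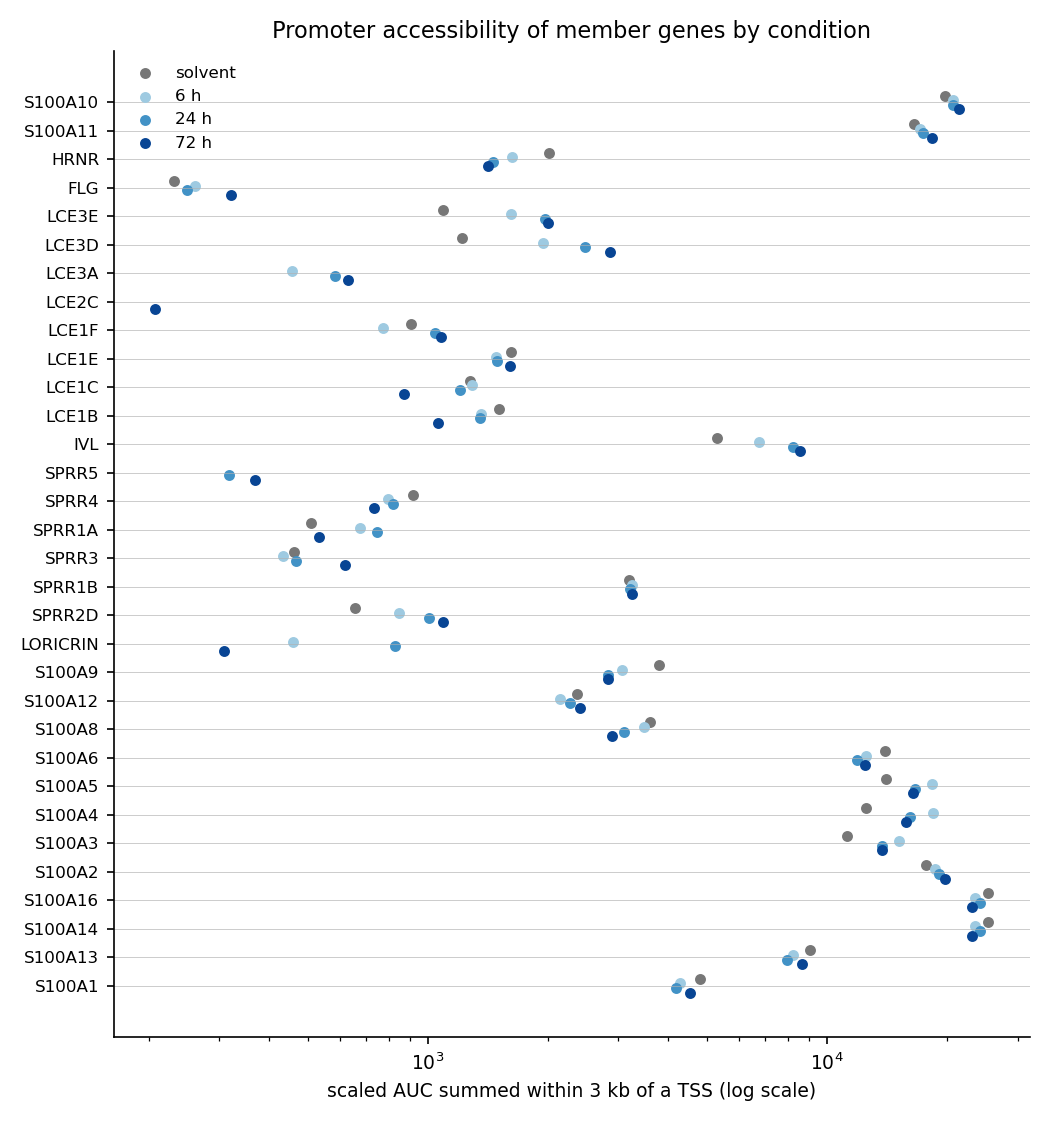
Scaled AUC summed over regions within 3 kb of a TSS (log axis) for the 32 member genes with such a region, in the order of the chromosome, with 1 point per condition and no point where no peak was listed. S100A genes of both outer blocks lie to the right, the LCE3 genes, IVL and SPRR2D shift rightward from solvent to 72 h, and HRNR, LCE1B, LCE1C, S100A8 and S100A9 shift leftward.

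Involucrin is the classical early marker of keratinocyte differentiation, and its gene (chr1:152908546-152911886, plus strand) showed the largest AUC of the envelope genes. Within 3 kb of its TSS the scaled AUC was 5306, 6765, 8212 and 8569, higher in each list than in the one before it (0.35, 0.63 and 0.69 in log2 against solvent). Most of this difference lay in a wide region upstream, and little of it at the start site itself. The upstream region (chr1:152904830-152906830, in an intron of the non-coding gene ENSG00000289062, summit 2112 bp before the TSS) went from 3930 to 5570, 6805 and 7075. The region over the TSS held 1376, 1194, 1406 and 1493. Per base of peak the ratio for the gene was 0.45 at 24 h and 0.44 at 72 h in log2, short of the fold. Both regions carry an AP-1 motif (TGACTCA or TGAGTCA, searched on both strands), 9 bp from the upstream summit and 4 bp from the summit at the TSS. The sequences are shown because the rise at IVL rests on the first of them. The first is the window reaching 100 bp to either side of the upstream summit (chr1:152906334-152906534, GRCh38, plus strand), the second the promoter from RefSeq (chr1:152908296-152908595, GRCh38.p14, plus strand). Capitals mark AP-1 motifs and the E-box CACCTG on either strand.
IVL upstream region: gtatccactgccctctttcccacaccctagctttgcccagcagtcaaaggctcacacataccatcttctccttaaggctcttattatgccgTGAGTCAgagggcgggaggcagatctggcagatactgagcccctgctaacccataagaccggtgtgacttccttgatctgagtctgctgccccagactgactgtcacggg
IVL promoter: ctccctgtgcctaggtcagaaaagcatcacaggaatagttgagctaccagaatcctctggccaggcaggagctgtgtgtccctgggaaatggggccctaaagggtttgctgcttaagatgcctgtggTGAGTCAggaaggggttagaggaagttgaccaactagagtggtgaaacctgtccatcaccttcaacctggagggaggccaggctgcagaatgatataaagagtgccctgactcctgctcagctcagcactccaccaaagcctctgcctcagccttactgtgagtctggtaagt

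Downstream of IVL stood the region with the largest rise of the interval among those reaching a scaled AUC of 1000 (chr1:152912792-152913289, summit 4576 bp after the TSS, in an exon of ENSG00000289062). It held 200, 175, 570 and 1069, a ratio of 2.42 in log2 at 72 h, and was low in the first lists and high in the last. Its solvent value lies at the smallest AUC that the lists contain. Farther on in the same direction lay the largest fall by the same limit of 1000 (chr1:152932189-152933015), in an intron of the non-coding gene LINC01527 and 14551 bp before the TSS of SPRR5. There the scaled AUC was 3248, 2089, 1420 and 769, lower in each list than in the one before it (-0.64, -1.19 and -2.08). Per base the ratios at 72 h were 1.56 for the rise and -1.52 for the fall. Neither window of this size holds an AP-1 motif, and both hold the E-box, in capitals below, 1 time each. The first window is chr1:152913022-152913222 and the second chr1:152932555-152932755, both on the plus strand of GRCh38.
IVL downstream region: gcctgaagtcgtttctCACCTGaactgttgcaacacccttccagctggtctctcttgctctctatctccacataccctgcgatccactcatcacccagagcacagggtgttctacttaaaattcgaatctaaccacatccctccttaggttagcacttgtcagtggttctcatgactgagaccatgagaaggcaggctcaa
SPRR5 upstream region: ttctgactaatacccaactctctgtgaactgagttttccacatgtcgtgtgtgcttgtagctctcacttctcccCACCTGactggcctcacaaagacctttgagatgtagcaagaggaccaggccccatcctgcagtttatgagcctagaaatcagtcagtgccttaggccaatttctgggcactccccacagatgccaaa

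The SPRR genes encode small proline-rich cross-bridges of the envelope. SPRR2D (chr1:153039732-153041931) had 657, 846, 1004 and 1089, again highest at 72 h (0.73). SPRR1A had 509, 677, 746 and 532, above solvent at 6 and 24 h (0.41 and 0.55) and back near it at 72 h (0.06). SPRR1B, the SPRR gene with most AUC, held 3191, 3235, 3204 and 3250, of which the region over its TSS made up 682, 837, 895 and 703 and one 1953 bp after it the rest, SPRR3 held 461, 434, 468 and 619, and SPRR4 918, 792, 815 and 732. None of these 3 genes passed the fold. SPRR4 turned sign per base of peak, from -0.33 to 0.41 in log2 at 72 h. SPRR5 had no peak in solvent or at 6 h and 317 and 368 at 24 and 72 h. Loricrin, a major envelope protein of the late epidermis, likewise had none in solvent, then sums of 459, 826 and 308 within 3 kb of its TSS. These came from 1, 2 and 1 regions at 6, 24 and 72 h, so the highest sum, at 24 h, joins 2 regions. Within 1 kb of the LORICRIN TSS there were 0 regions. The promoter of SPRR1B (chr1:153030953-153031252, plus strand, RefSeq, GRCh38.p14) is shown because it holds an AP-1 motif and 4 E-boxes, in capitals, at a gene whose summed AUC did not pass the fold.
SPRR1B promoter: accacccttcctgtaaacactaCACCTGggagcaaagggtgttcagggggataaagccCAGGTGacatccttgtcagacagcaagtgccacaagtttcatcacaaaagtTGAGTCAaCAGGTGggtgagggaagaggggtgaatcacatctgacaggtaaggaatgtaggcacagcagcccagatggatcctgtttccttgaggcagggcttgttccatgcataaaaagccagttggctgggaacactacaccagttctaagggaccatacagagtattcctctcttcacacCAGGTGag

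LCE genes code for proteins laid down last in the envelope, and those with a promoter region differed among themselves. In AUC at 72 h LCE3D and LCE3E were raised and LCE1B and LCE1C lowered, and per base of peak LCE3E and LCE1B turned sign. The LCE3 genes are known for induction on skin injury and in psoriasis. LCE3D (chr1:152579381-152580516) held 1216, 1937, 2467 and 2850 (0.67, 1.02 and 1.23 in log2, and 0.74 per base at 72 h), in a region over the TSS (922, 1354, 1644 and 1885) and one 2326 bp before it (294, 583, 823 and 965). LCE3E held 1088, 1618, 1967 and 1994 (0.57, 0.85 and 0.87), although per base of peak its value at 72 h was -0.10. LCE3A had no peak in solvent and 455, 584 and 632 afterwards, and LCE2C only reached the list at 72 h, with 207. Of the LCE1 genes, LCE1C went from 1271 in solvent to 1286, 1204 and 871 (-0.55 at 72 h, and -0.50 per base), and LCE1B from 1506 to 1359, 1351 and 1059 (-0.51), which is 0.10 per base. LCE1F (905, 773, 1039 and 1078) and LCE1E (1610, 1480, 1485 and 1607) did not pass the fold in any list. Gained regions of this block reached values like those of the promoters. The strongest (chr1:152501563-152502369, intergenic, 9002 bp before the TSS of LCE5A) held 637, 1302 and 1646 at 6, 24 and 72 h, with no peak in solvent. The region upstream of LCE3D spans chr1:152582691-152583020. Both windows (chr1:152501701-152501901 and chr1:152582742-152582942, plus strand, GRCh38) are shown with AP-1 and E-box motifs in capitals.
LCE5A upstream region: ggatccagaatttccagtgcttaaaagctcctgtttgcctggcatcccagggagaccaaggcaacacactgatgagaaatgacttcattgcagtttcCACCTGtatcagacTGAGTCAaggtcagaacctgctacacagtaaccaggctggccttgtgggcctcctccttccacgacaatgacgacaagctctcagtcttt
LCE3D upstream region: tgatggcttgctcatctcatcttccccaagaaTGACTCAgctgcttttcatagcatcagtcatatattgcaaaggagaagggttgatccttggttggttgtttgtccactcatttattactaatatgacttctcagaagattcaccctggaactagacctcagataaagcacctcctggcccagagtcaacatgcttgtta

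The other regions with the largest AUC among those gained at 72 h were SMCP +9968 bp (610, 712 and 869 at 6, 24 and 72 h), LCE5A -36713 bp (325, 669 and 718), CRCT1 -122 bp (296, 601 and 715) and the LCE3A promoter itself, where the sign gives the side of the TSS. All 4 were absent from solvent and highest at 72 h. Of the 2 lost regions, the one 10394 bp after the TSS of TCHH held 831, 522 and 195 before it left the list at 72 h. The other, at a TSS of S100A13, held 293 and 243 before it left at 24 h. It is shared with S100A1, whose promoter it overlaps. Of the large repeat genes, HRNR was lowered at 72 h (2005, 1621, 1458 and 1414, -0.50, and -0.47 per base) and lay just at the fold. FLG, encoding filaggrin, had a region close to the smallest AUC in each list (231, 260, 249 and 321).

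S100A8 and S100A9 pair into calprotectin, a protein of neutrophils and stressed epithelium. On the scale used here neither gene's summed AUC passed the fold, while regions near both did at 72 h. With all shared regions as the scale, the S100A9 sum did pass it, at -0.55 at 24 h and -0.57 at 72 h. S100A9 (chr1:153357854-153361023) held 3799 in solvent and 3062, 2820 and 2827 under TGFβ1 (-0.31, -0.43 and -0.43), lower in every TGFβ1 list than in solvent. The region over its TSS alone held 2353, 1864, 1667 and 1608 (-0.55 at 72 h), and a region 7558 bp after the TSS 1259, 1066, 837 and 732 (-0.78), although per base that one was 0.20. S100A8 (chr1:153390032-153391073, minus strand) held 3604, 3478, 3091 and 2882 (-0.05, -0.22 and -0.32). Its TSS region kept its level (2384, 2524, 2333 and 2469). A region 3073 bp upstream (chr1:153394018-153394468, intergenic) fell from 1220 to 954, 758 and 413 (-0.36, -0.69 and -1.56), and was -0.94 per base. S100A12, the neighbouring gene of the same kind, stayed at 2355, 2136, 2269 and 2405. The window of the upstream region (chr1:153394046-153394246, plus strand, GRCh38) holds neither motif, and the promoter of S100A8 (chr1:153391139-153391438, minus strand, RefSeq) holds 1 E-box, in capitals.
S100A8 upstream region: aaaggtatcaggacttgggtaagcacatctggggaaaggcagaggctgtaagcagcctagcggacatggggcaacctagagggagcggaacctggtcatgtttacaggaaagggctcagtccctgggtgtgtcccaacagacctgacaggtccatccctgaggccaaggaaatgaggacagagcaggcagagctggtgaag
S100A8 promoter: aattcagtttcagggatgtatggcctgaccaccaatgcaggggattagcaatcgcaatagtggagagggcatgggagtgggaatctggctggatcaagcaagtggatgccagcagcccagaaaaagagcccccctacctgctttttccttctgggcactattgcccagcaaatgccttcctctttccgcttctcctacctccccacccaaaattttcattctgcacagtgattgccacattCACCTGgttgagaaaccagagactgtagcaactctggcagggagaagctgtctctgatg

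S100A2, a p53 and p63 target of basal epithelial cells, lies in a domain with one very strong region and weaker ones that rose early. Its gene spans chr1:153561108-153567890 on the minus strand. Summed within 3 kb of its TSSs the scaled AUC was 17702, 18609, 19093 and 19754 (0.07, 0.11 and 0.16), which per base of peak was -0.21, -0.24 and -0.29. The strong region over the TSS kept 17447, 17446, 17348 and 18316. Around it, a region in the gene 2032 bp after the nearest TSS held 254 in solvent and 881, 893 and 861 later (1.79, 1.81 and 1.76). Its solvent value lies not far above 200, the minimum AUC of the lists. Regions 3878 and 5977 bp after the TSS, past the end of the gene, held 760, 2391, 1599 and 1700 (1.16 at 72 h) and 450, 1386, 1291 and 1061 (1.24). A further intronic region had no peak in solvent and held 282, 853 and 578. Of the first 3, each was several times higher at 6 h already than in solvent, and the 2 past the gene end were highest then. Per base of peak the value at 72 h was 1.05 for the farther and 0.14 for the nearer region past the gene end, where that of the latter was close to solvent. The promoter (chr1:153565795-153566094, minus strand, RefSeq, GRCh38.p14) is shown with its AP-1 motif in capitals, since it carries the largest part of this AUC.
S100A2 promoter: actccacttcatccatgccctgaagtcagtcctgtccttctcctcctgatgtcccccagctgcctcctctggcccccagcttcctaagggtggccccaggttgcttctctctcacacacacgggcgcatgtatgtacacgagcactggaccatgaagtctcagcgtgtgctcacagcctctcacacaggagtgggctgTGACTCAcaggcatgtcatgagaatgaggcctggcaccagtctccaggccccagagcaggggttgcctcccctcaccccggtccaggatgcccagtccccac

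Of the remaining S100A promoters, S100A4 passed the fold, at 6 h, and the others did not at any time. S100A16 and S100A14, which share all their regions, held 25314, 23435, 24124 and 23104, S100A10, the annexin A2 partner, 19694, 20722, 20726 and 21433, and S100A11 16515, 17065, 17394 and 18317. S100A6 held 13999, 12498, 11861 and 12454. S100A3, S100A4 and S100A5 overlap in a wide region, which was highest at 6 h. The summed AUC of S100A4, a gene often used as a marker of mesenchymal cells, was 12506, 18453, 16138 and 15779 (0.56, 0.37 and 0.34, but 0.14, 0.09 and 0.04 per base of peak, and 0.50 at 6 h, just short of the fold, when all shared regions set the scale), that of S100A5 14006, 18299, 16599 and 16454, and that of S100A3 11233, 15099, 13704 and 13754. S100A13 (9037, 8209, 7947 and 8632) and S100A1 (4809, 4288, 4190 and 4530) share regions with each other, and S100A13 also with CHTOP. Beyond these promoters, a distal region 11914 bp after the TSS of S100A10 (chr1:151979565-151981148, intergenic) went from 561 in solvent to 1758, 1603 and 1867 (1.73 at 72 h, and 0.97 per base), on a plateau from 6 h on. At the other end of the interval, a region 12852 bp after the TSS of SLC27A3, in an intron of GATAD2B, held 479, 578, 908 and 1022 (1.09). The window of the region after S100A10 (chr1:151980564-151980764, plus strand, GRCh38) holds an AP-1 motif 48 bp from the summit, in capitals.
S100A10 downstream region: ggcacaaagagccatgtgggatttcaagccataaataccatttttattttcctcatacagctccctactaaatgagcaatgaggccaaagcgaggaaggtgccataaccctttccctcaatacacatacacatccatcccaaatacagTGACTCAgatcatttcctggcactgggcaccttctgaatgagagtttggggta

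Sequence motifs were counted within 100 bp of the summit. The motifs were searched on both strands. They were AP-1 (TGACTCA or TGAGTCA), E-box (CACCTG), ETS (AGGAAG or CGGAAG), C/EBP, GRHL and SMAD (8-letter words) and KLF (9-letter words). AP-1 motifs stood in 57 of 219 regions of the complex (26.0%, 95% Wilson interval 20.7 to 32.2), against 32.3% of all regions. The shares were 28.0% against 37.5% in distal regions, and 23.8% against 22.3% in proximal ones. Of the 40 regions raised at 72 h 13 had the motif (32.5% against 45.9%), of the 36 gained 12 (33.3% against 39.9%) and of the 14 lowered 1 (7.14% against 12.8%). The E-box stood in 46 regions (21.0% against 17.9%), and in 5 of the 14 lowered ones (35.7% against 30.1% of lowered regions of the genome). ETS words stood in 37.0% (30.9 to 43.6) against 29.5%. KLF words stood in 14 regions (6.39% against 5.80%), GRHL in 3 (1.37% against 0.621%), SMAD in 3 (1.37% against 0.942%) and C/EBP in 2 (0.913% against 2.82%). Mean GC content of the windows was 51.2% in the interval and 50% over all regions. Promoters from RefSeq (250 bp before to 50 bp after the start) were matched by symbol for 50 of 53 members. AP-1 stood in 9 (18% against 4.95% of 35116 promoters), the E-box in 22 (44% against 20.6%), ETS in 36 (72% against 46.9%), KLF in 4 (8% against 18.4%) and C/EBP in 4 (8% against 1.77%). The 9 were IVL, SPRR1A, SPRR1B, SPRR2A, SPRR2F, SPRR3, LORICRIN, S100A2 and S100A3, and the 4 with C/EBP were LCE2A to LCE2D. SPRR and LCE genes are copies of each other, so their promoters are not independent counts.

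Genes of cornification elsewhere in the genome were followed in the same way. Of 26 such genes, 20 had a promoter peak in solvent and at each time. At 6 h 2 were raised and 0 lowered, at 24 h 3 and 2, and at 72 h 2 and 2, beside 4.63%, 7.45% and 7.10% of all genes raised and 0.378%, 0.924% and 1.58% lowered, with medians of 0.04, -0.02 and -0.06 in log2 against the -0.02, -0.03 and -0.04 over all genes. TGM1, the transglutaminase that cross-links the envelope, fell from 3905 to 2847, 1846 and 1078 (-1.86 at 72 h), and PPL, encoding periplakin, from 9364 to 7696, 6443 and 5465 (-0.78). KRT14, the keratin of basal cells, rose from 2652 to 5978, 6724 and 6404 (1.27), and PKP1, encoding a plakophilin of desmosomes, from 946 to 1320, 1790 and 2137 (1.18). Of 20 genes for regulators known to act on the complex, all had a promoter peak in solvent, and their medians were -0.04, -0.07 and -0.12. TP63 was raised at 6 h (757 in solvent, 1173 at 6 h, then 949 and 1031), none passed the fold at 24 h, and ZNF750, a p63 target that promotes terminal differentiation, was lowered at 72 h (406, 360, 348 and 186). JUNB, an AP-1 subunit, stayed at 16734, 15581, 15770 and 15535.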

How the data were processed

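ATAC-seq was performed on MCF10A cells in 8 libraries of 4 conditions, 2 replicates each, with the condition of each list taken from the authors' list name and matched to the sample labels. Per the submitters' processing notes and methods, the authors trimmed reads with Trimmomatic 0.38, aligned them to GRCh38 with Bowtie2 2.4.5, removed duplicates with Picard, filtered with SAMtools 1.4.1 (properly paired, high mapping quality, no mitochondrial reads), and called peaks on both replicates together with Genrich 0.5 in its ATAC mode, which places signal at the cut sites. The deposited lists give for each peak a signal (the AUC, above a minimum of 200, not scaled between lists), a score, −log10 p- and q-values and a summit offset; the authors' score and −log10 p-values were not used for any result, and read depth is not in the lists. Summed AUC therefore mixes width, strength and depth. Peaks of the 4 lists were merged where they shared 1 bp, and ratios were taken against solvent with Python 3.11.15, numpy 2.4.6 and pandas 2.3.3. TSSs and genes came from GENCODE release 44. The scaling and the calls were run on simulated lists, copies of the solvent list with known shifts. These held no gained or lost peaks and as many rises as falls. They can therefore not show whether the scaling suits the real lists. No replicate values exist in the lists, so no test was run. Intervals given for shares are 95% Wilson intervals, while limits for counts of 0 are 3 over the number of regions or genes. Regions were named by a rule: the 5 largest rises and falls at 72 h among shared regions of at least 1000 AUC, and the 5 of largest AUC gained or lost. Regions at IVL, LCE3D, S100A2 and S100A8 beyond these, and the motif sequences printed, were picked after their values were seen. The members and gene lists were chosen with earlier results of these data known. Alternatives tried were no scaling, other scalings, AUC per base, equally long lists, peaks of at least 400 AUC, a fold of 1 in log2, an overlap of at least 50%, 1 kb to a TSS, motifs in whole peaks, other interval ends and assignment to all annotated genes.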

Additional observations from a re-analysis of the deposited data

How the results depend on the processing

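No paired analysis was possible because each list pools both replicates, and for the same reason no replicate could be left out. The summed AUC ratios at 6, 24 and 72 h were 1.44, 1.43 and 1.31 without scaling, 1.01, 1.01 and 1.00 with scaling by all shared regions, 1.07, 1.12 and 1.13 with scaling by regions near protein-coding TSSs, 1.08, 1.13 and 1.13 with a minimum AUC of 400, 1.03, 1.07 and 1.07 with lists of equal length, 1.07, 1.17 and 1.15 per base, and 1.07, 1.11 and 1.12 from the first to the last member. The share raised at the 3 times was 45.3%, 49.1% and 39.4% without scaling and 4.07%, 7.60% and 9.41% at a log2 ratio of 1, 17.6% at 72 h with the minimum of 400, and 17.5% at 24 h and 15.3% at 72 h per base. The share lowered was 0% at 6 h and 3.53% at 72 h without scaling, 7.56% at 6 h and 7.60% at 24 h per base, and 0% at 6 h and 1.76% at 72 h at a log2 ratio of 1. Gained regions numbered 13, 17 and 17 with lists of equal length. Lost regions numbered 10, 11 and 15 with lists of equal length, 19, 18 and 17 with an overlap of 50% of both peaks, and 4 at 72 h with the minimum of 400. AP-1 motifs stood in 33.8% of whole peaks, and 107 regions were assigned to members when all annotated genes were used. Per base of peak, 3 called values turned sign at 72 h: LCE3E at -0.10, LCE1B at 0.10 and the region 7558 bp after S100A9 at 0.20. Sums that were not called also turned: S100A2 to -0.29, SPRR4 from -0.33 to 0.41, S100A1 to 0.31, S100A13 to 0.18, S100A11 to -0.04 and LCE1E to 0.02. The cause of these shifts was not tested, and the genome's shares under these settings are not given. Depth is unknown, and small ratios depend on the scale chosen.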

Other observations

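Of the 16 protein-coding genes of the interval that are not members, 13 had a region within 3 kb of a TSS in some list. Values are in the order solvent, 6 h, 24 h, 72 h unless stated. C1orf68 held 962 in solvent and 1268, 1433 and 1571 at 6, 24 and 72 h (0.71 in log2 at 72 h), SMCP 365, 614, 763 and 704 (0.95), and NPR1, the receptor of atrial natriuretic peptide, 870, 1216, 1207 and 1310 (0.59). All 3 were higher in every TGFβ1 list than in solvent. PGLYRP4, encoding a peptidoglycan recognition protein, held 605, 674, 497 and 404 (-0.58). A region 2072 bp after the TSS of SLC27A3 held 869, 571, 400 and 187, lower in each list than in the one before it (-2.22 at 72 h), though too weak for the rule on named regions, while the sum at SLC27A3 was 8550, 7847, 7605 and 6970. INTS3 held 12611, 11221, 11722 and 11707.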
